A study of Mus musculus with 8 samples.

Results

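The genes described here are the 4 KDM4 histone demethylases, Kdm4a, Kdm4b, Kdm4c and Kdm4d, together with the 5 main methyltransferases of histone H3 lysine 9 (H3K9), Suv39h1, Suv39h2, Setdb1, Ehmt1 and Ehmt2, and Trim28, the co-repressor that recruits SETDB1. They were taken by gene symbol, by a rule that uses no measured value, although the list was chosen with earlier results of these data known. They are 10 of the 41325 genes listed for every library. Of the 10, 9 passed the filter of over 1 RPKM (reads scaled to exon length and to the mapped reads of the library) in at least 1 library, as did 11513 genes in all. Kdm4d did not pass and is described by its reads.

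Methyl groups on H3K9 mark silent chromatin. SUV39H1 and SUV39H2 place the tri-methyl mark at pericentromeric heterochromatin, SETDB1 places it at genes and retroelements that TRIM28 binds through zinc finger proteins, and the EHMT1 (GLP) and EHMT2 (G9a) heterodimer places mono- and di-methyl marks in euchromatin. The JmjC-domain enzymes of the KDM4 family remove tri- and di-methyl marks from H3K9, and KDM4A, KDM4B and KDM4C also act on H3K36, which KDM4D does not. HP1 proteins read the mark, and the enzymes are studied in adipogenesis because the chromatin of the genes for PPARγ and C/EBPα, the main drivers of fat cell formation, changes as preadipocytes differentiate.

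RNA was sequenced from C3H10T1/2 cells, a mouse mesenchymal line from embryonic tissue that forms adipocytes under hormone induction. The lines were shControl (genotype labelled WT), shKDM4D, shNFIB and shMLL1, the last aimed at the gene now called Kmt2a. Nfib codes for a transcription factor and Kmt2a for an H3K4 methyltransferase. The study's methods describe the knockdown lines as stable clones, isolated after puromycin selection of cells given a short hairpin RNA vector. How the shControl line was made or selected is not stated there. Each line was sampled after growth to confluence and before induction (day 0), and again at day 5 of adipogenic differentiation. Per the study's methods, induction began with insulin, dexamethasone and isobutylmethylxanthine, continued with insulin alone and ended in medium without them before day 5, with no difference stated between the 4 lines, the control included. With 1 library for each of the 8 conditions, no value has a replicate, intervals on single ratios cover counting error only, and a hairpin cannot be told apart from the history of its line. The labels do not say which of the study's shKDM4D lines was sequenced.

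The libraries held between 15842217 and 38202541 mapped reads, and both libraries of shMLL1 were deeper than the others. Nfib and Kmt2a were lower in the lines that target them: Nfib was 2.31 and 3.38 RPKM at day 0 and day 5 in shNFIB against 9.92 and 17.0 in shControl, and Kmt2a was 2.00 and 1.63 in shMLL1 against 5.17 and 5.27. Kdm4d had too few reads to show its knockdown at day 0. The study reports lower KDM4D in its shKDM4D lines by RT-qPCR and immunoblot. Of 10 mesenchymal markers, 8 or 9 exceeded 1 RPKM in every library. Nt5e was near 0 throughout, and Thy1 was at least 22.6 RPKM in shControl and 11.1 in shMLL1, but at most 0.139 in shKDM4D and shNFIB. At day 5 the 6 adipocyte markers summed to 796 RPKM in shControl, with sums of 25.5 for shKDM4D, 0.936 for shNFIB and 2.86 for shMLL1, and with at most 0.702 in any line at day 0. Summed markers of haematopoietic, endothelial, epithelial, muscle and neural cells stayed at or below 3.42 RPKM in every library. In bulk RNA, fewer cells of a type and less RNA per cell cannot be told apart. The share of a pair of ribosomal-RNA-like genes ranged from 7.95% to 10.47% among day 0 libraries but only from 3.07% to 3.62% among day 5 libraries, which bears on every day 5 to day 0 ratio.

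The start regions of 9 of the 10 genes, 12 windows in all, were matched in RefSeq promoter tables (GRCm38.p6), each spanning 250 bases before to 50 bases after a transcription start. Kdm4b had no entry there, so nothing below covers its promoter. Those of Suv39h1 and Suv39h2 are printed because these genes moved together at day 5, and that of Kdm4d because it is the targeted and least expressed member. Capitals mark CG dinucleotides, and each window is read 5′ to 3′ on the gene's strand. The windows are chrX:8074711-8075010 and chrX:8074312-8074611 on the minus strand for the annotated starts of Suv39h1, chr2:3474937-3475236 on the minus strand for Suv39h2 and chr9:14500433-14500732 on the minus strand for Kdm4d.
Suv39h1, first start: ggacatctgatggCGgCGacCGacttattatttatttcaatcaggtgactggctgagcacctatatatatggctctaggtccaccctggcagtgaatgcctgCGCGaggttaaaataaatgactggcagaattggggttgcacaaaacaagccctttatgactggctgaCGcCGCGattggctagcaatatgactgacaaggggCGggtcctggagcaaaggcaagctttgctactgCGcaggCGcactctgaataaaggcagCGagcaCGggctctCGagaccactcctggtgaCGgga
Suv39h1, second start: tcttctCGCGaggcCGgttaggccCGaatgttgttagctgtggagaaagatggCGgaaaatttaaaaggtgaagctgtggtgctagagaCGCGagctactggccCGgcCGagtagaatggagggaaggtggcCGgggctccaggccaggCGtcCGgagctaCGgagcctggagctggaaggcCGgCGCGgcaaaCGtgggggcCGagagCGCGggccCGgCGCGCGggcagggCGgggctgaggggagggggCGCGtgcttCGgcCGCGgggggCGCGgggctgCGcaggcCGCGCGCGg
Suv39h2: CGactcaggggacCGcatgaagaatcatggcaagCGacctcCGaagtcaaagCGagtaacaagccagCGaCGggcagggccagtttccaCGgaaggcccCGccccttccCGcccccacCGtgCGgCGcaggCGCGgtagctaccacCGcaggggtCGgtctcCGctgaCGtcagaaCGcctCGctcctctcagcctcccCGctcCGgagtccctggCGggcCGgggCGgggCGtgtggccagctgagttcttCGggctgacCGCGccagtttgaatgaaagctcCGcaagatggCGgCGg
Kdm4d: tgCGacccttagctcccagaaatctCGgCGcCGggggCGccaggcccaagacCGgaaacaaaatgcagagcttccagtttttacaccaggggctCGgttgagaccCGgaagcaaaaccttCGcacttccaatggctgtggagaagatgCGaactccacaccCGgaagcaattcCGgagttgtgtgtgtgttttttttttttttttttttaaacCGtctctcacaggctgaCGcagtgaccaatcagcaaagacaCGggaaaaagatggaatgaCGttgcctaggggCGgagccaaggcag
The Suv39h1 windows held 15 and 37 CG dinucleotides, the Suv39h2 window 33 and the Kdm4d window 17, where the median over all 32851 promoters was 7. Over the other members with a window the count ran from 0, at the first Kdm4c start, to 40, at the second Ehmt2 start. The E2F core, searched on both strands as TTGGCGC and as TTCGCGC, was in 0 of the 12 windows and in 3.89% of all promoters. The nuclear factor I half-site TTGGCA, the letters that NFIB and its relatives recognise, was found on either strand in 1 of the 12, that of Setdb1, and in 14.1% of all promoters. A match describes letters in the window and does not show binding. Only these exact letters were searched, so the lack of a match does not show that a site is absent.

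The levels of these genes, per length of exon, covered a wide range. Averaged over the 8 libraries, Trim28 stood at 38.7 RPKM and Ehmt2 at 27.5, followed by Kdm4a at 12.8, Ehmt1 at 10.1, Kdm4c at 8.34, Kdm4b at 7.0, Setdb1 at 6.38, Suv39h1 at 5.16, Suv39h2 at 2.01 and Kdm4d at 0.0981. Trim28 and Ehmt2 exchanged ranks between libraries, as did neighbours among the 6 genes from Kdm4a to Suv39h1. The order of neighbours thus did not exceed the spread over libraries. Genes further apart could be separate: the lowest Kdm4a value, 8.17, lay above the highest of Setdb1, 7.26, and of Suv39h1, 7.76. Suv39h2 ranked 9 and Kdm4d 10 in every library. Setdb1 varied least over the 8 libraries, between 5.81 and 7.26 RPKM, and among the 9 genes over the filter Suv39h2 varied most, between 0.739 and 3.29 RPKM.

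**Figure D1:**
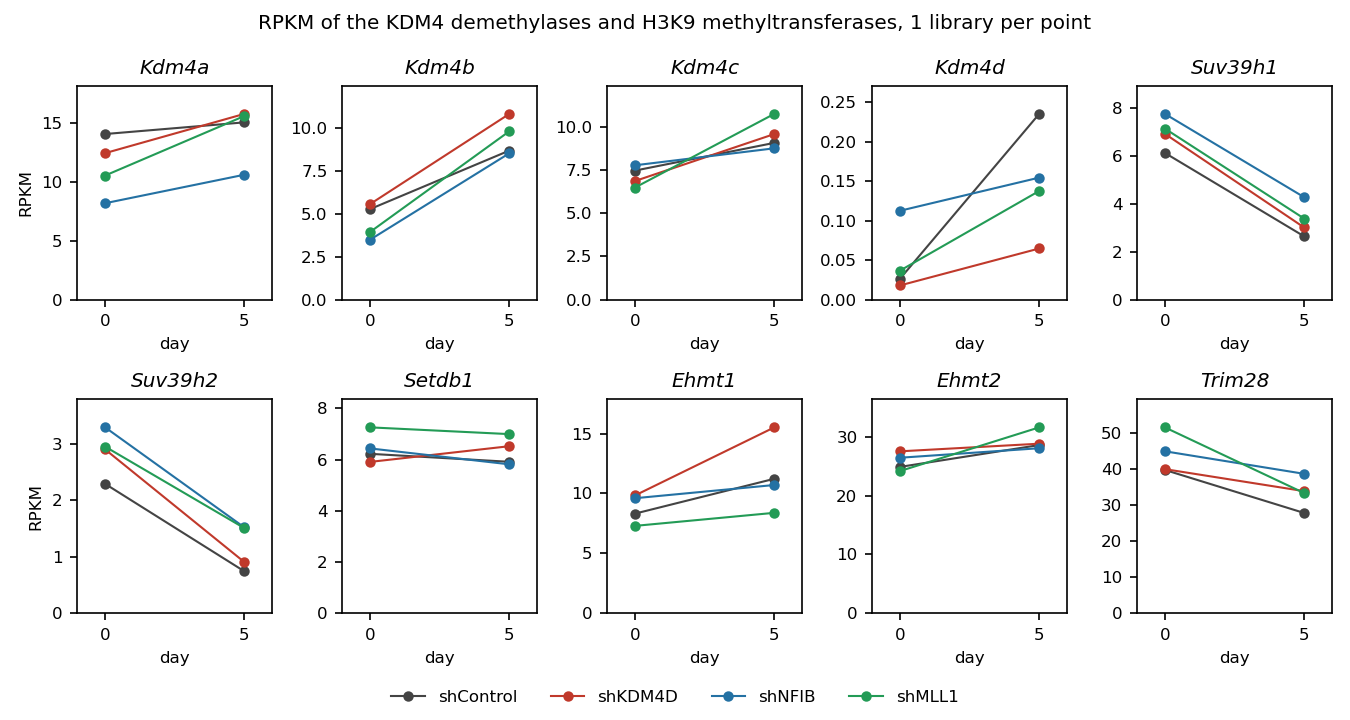
RPKM (vertical axis, from 0, scaled to each gene) of the 10 genes at day 0 and day 5 (horizontal axis), with 1 library per point and a line joining the libraries of each cell line. Kdm4b lay between 3.48 and 5.55 RPKM at day 0 and between 8.51 and 10.8 at day 5, Suv39h1 between 6.13 and 7.76 and then between 2.64 and 4.28, and Kdm4d stayed at or below 0.235.

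Which of these genes changed on average over the 4 lines as differentiation was induced was asked by comparing day 5 with day 0. In that comparison Kdm4a, Kdm4b, Kdm4c and Ehmt1 rose, Suv39h1, Suv39h2 and Trim28 fell, and Setdb1 and Ehmt2 did not pass the test. The test was limma with line as a block, on log2(RPKM + 0.1), called at a Benjamini-Hochberg adjusted p under 0.05 over 11513 genes. Its residual is the variation of the day change between lines, on 3 degrees of freedom, and the 4 lines are not replicates of a genotype. Thus 4 of 9 members rose and 3 of 9 fell, where 29.0% of all genes tested rose and 21.0% fell. Members whose 4 day 5 libraries all lay above their 4 day 0 libraries were Kdm4b, Kdm4c and Ehmt2, and those whose day 5 libraries all lay below were Suv39h1, Suv39h2 and Trim28, that is 3 of 9 each way, against 22.5% and 15.1% of all genes. Nothing is read from these counts over 9 genes, and the results lie with the single members.

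Kdm4b, an eraser of tri-methyl H3K9, showed the largest rise. It was 5.26 RPKM at day 0 and 8.67 at day 5 in shControl, 5.55 and 10.8 in shKDM4D, 3.48 and 8.51 in shNFIB, and 3.93 and 9.79 in shMLL1. The day groups did not overlap, and the day 0 values of shNFIB and shMLL1 were the lowest. Over the 4 lines Kdm4b rose by a log2 change of 1.05 ± 0.13 (SE, 8 libraries, adjusted p = 0.00169 by limma), and it was higher at day 5 in 4 of 4 lines. Line by line, shControl had a log2 ratio of 0.72 (95% interval for counting error 0.57 to 0.87), shKDM4D of 0.96 (0.81 to 1.11), shNFIB of 1.29 (1.09 to 1.49) and shMLL1 of 1.32 (1.19 to 1.44). The day change of shNFIB exceeded that of shControl by 0.57 (counting interval 0.33 to 0.81) and that of shMLL1 by 0.60 (0.40 to 0.79), a difference with no replicate check. Taken as ratios to Gapdh, day changes shift by -0.56 in shNFIB, 0.03 in shControl and -0.12 in shMLL1, so the shNFIB excess was not kept.

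Kdm4a, the most abundant KDM4 transcript, was 14.0 RPKM at day 0 and 15.0 at day 5 in shControl, 12.4 and 15.8 in shKDM4D, 8.17 and 10.6 in shNFIB, and 10.5 and 15.6 in shMLL1. The shNFIB line was lowest at both days, and the day groups overlapped. Its log2 change over the lines was 0.34 ± 0.10 (SE, 8 libraries, adjusted p = 0.0327 by limma). In shControl alone the log2 ratio was 0.10 (counting interval 0.01 to 0.19), and it was -0.01 when the ribosomal-RNA-like genes were left out of the read totals.

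Kdm4c, which acts on the same marks, was 7.46 RPKM at day 0 and 9.06 at day 5 in shControl, 6.86 and 9.57 in shKDM4D, 7.77 and 8.75 in shNFIB, and 6.48 and 10.7 in shMLL1. All day 5 libraries exceeded all day 0 libraries, with the widest step in shMLL1, where the log2 ratio was 0.73 (0.63 to 0.82), and the narrowest in shNFIB, at 0.17 (0.03 to 0.31). The log2 change over the lines was 0.41 ± 0.12 (SE, 8 libraries, adjusted p = 0.0277 by limma). The calls of Kdm4a and Kdm4c were each lost under 5 of 12 alternatives. For Kdm4a the adjusted p by limma was 0.0955, 0.0975 and 0.0889 without shKDM4D, shMLL1 and shNFIB, and for Kdm4c it was 0.0567, 0.0929 and 0.0765 without shControl, shKDM4D and shMLL1. Both lay below 0 in shNFIB as ratios to Gapdh, at -0.19 and -0.39, with Gapdh itself between 159 and 326 RPKM.

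Kdm4d, the demethylase targeted in this study, gave between 1 and 15 reads per library. It was 0.0262 RPKM at day 0 and 0.235 at day 5 in shControl, 0.0179 and 0.0647 in shKDM4D, 0.112 and 0.154 in shNFIB, and 0.0366 and 0.138 in shMLL1. The control at day 5 was the highest and the shKDM4D library at day 0 the lowest, while the day groups overlapped. The rise from 2 to 13 reads in shControl gave a log2 ratio of 3.16 (counting interval 1.02 to 6.35) and that from 4 to 15 reads in shMLL1 gave 1.91 (0.26 to 3.96). The intervals of shKDM4D, with 1 and 4 reads, and of shNFIB, with 6 and 7 reads, included 0. In the shKDM4D line the log2 ratio to shControl was -1.86 (-3.94 to -0.17) at day 5, from 4 against 13 reads, and -0.55 (-6.44 to 3.71) at day 0, from 1 against 2 reads. So few reads could not show whether Kdm4d differed at day 0.

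The sum over the KDM4 family was 26.8 RPKM at day 0 and 33.0 at day 5 in shControl, 24.8 and 36.2 in shKDM4D, 19.5 and 28.0 in shNFIB, and 21.0 and 36.2 in shMLL1. Kdm4a made up between 37.8% and 52.4% of it and Kdm4d at most 0.712%. The share of Kdm4b was between 17.8% and 22.3% in the day 0 libraries and between 26.3% and 30.4% in the day 5 libraries. In the shKDM4D line, the other 3 members lay within 0.32 log2 units of shControl at both days.

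Suv39h1 and Suv39h2, the writers of pericentromeric tri-methyl H3K9, fell at day 5. Suv39h1 was 6.13 RPKM at day 0 and 2.64 at day 5 in shControl, 6.92 and 3.01 in shKDM4D, 7.76 and 4.28 in shNFIB, and 7.14 and 3.38 in shMLL1. Suv39h2 was 2.29 and 0.739 RPKM in shControl, 2.90 and 0.902 in shKDM4D, 3.29 and 1.52 in shNFIB, and 2.95 and 1.5 in shMLL1. No day 5 library of either gene reached a day 0 library, and shControl was the lowest line for both genes at both days. The fall over the lines was a log2 change of -1.06 ± 0.10 for Suv39h1 (SE, 8 libraries, adjusted p = 0.000997 by limma) and of -1.27 ± 0.16 for Suv39h2 (adjusted p = 0.00203 by limma), with both genes lower in 4 of 4 lines.

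The Suv39h2 change took different sizes in the lines, with no replicate check. Its log2 ratio was -1.63 (counting interval -2.05 to -1.23) in shControl and -1.69 (-2.06 to -1.33) in shKDM4D, but -1.12 (-1.46 to -0.79) in shNFIB and -0.97 (-1.20 to -0.75) in shMLL1. The day change in shMLL1 was smaller than in shControl by 0.66 (counting interval 0.21 to 1.11), and that in shKDM4D differed by -0.05 (-0.58 to 0.48). For shNFIB the difference was 0.51, with a counting interval of 0.0 to 1.03. Taken as ratios to Gapdh, day changes shift by -0.56 in shNFIB and 0.03 in shControl, so the smaller fall in shNFIB was not kept. Between 63 and 497 reads lie behind each Suv39h2 value. For Suv39h1 the log2 ratios were -1.21, -1.20, -0.86 and -1.08 in shControl, shKDM4D, shNFIB and shMLL1. Dclre1c lies on the strand opposite to Suv39h2 and overlaps it, and the strand setting of the counting is not given in the sources used here. Dclre1c was between 0.517 and 0.840 RPKM in every library.

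Proliferation genes moved with the SUV39H genes. All 15 of a list of cell cycle and replication genes, among them Mki67, Top2a and Mcm2, fell at day 5 in the same limma test, against 21.0% of all genes. Their summed RPKM was 673 at day 0 and 245 at day 5 in shControl, 857 and 319 in shKDM4D, 792 and 372 in shNFIB, and 925 and 382 in shMLL1. As with the SUV39H genes, shControl was the lowest line at both days. The summed adipocyte markers given above also differed between the day 5 libraries. The part of proliferation and of adipocyte formation in the SUV39H result was not tested.

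**Figure D2:**
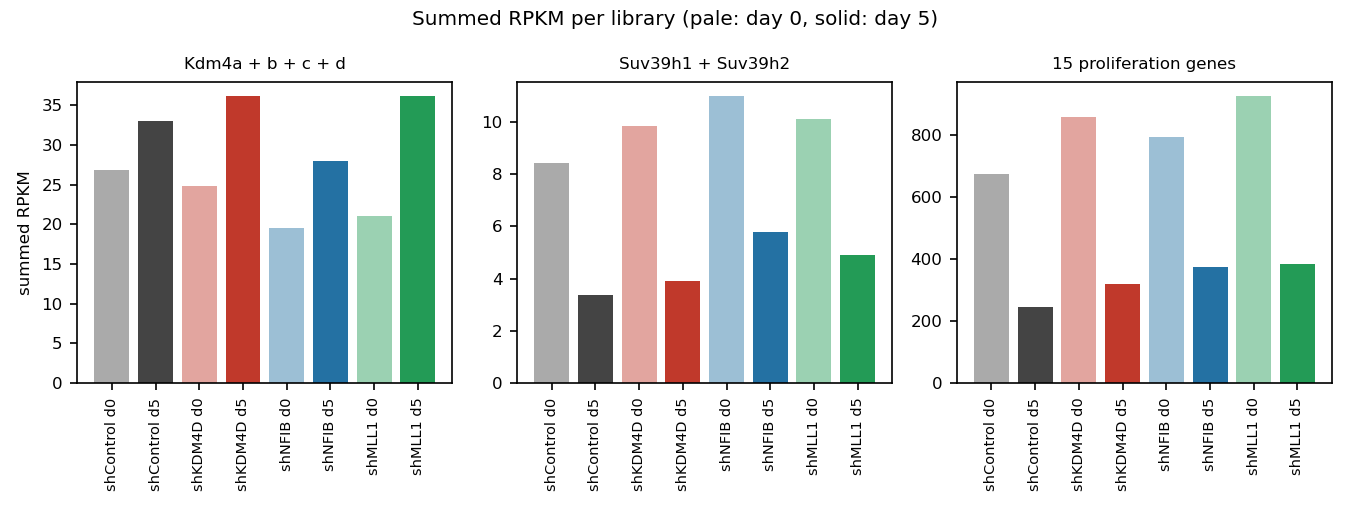
Summed RPKM (vertical axes, from 0) of the 4 KDM4 genes, of Suv39h1 with Suv39h2, and of 15 proliferation genes in each of the 8 libraries, with day 0 in pale and day 5 in solid bars and no replicates. The KDM4 sum was 26.8 and 33.0 in shControl at day 0 and day 5, while the SUV39H sum was 8.42 and 3.38 and the proliferation sum 673 and 245.

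The ratio of the summed KDM4 RPKM to the summed SUV39H RPKM, a measure chosen after the values were seen, was 3.18 at day 0 and 9.76 at day 5 in shControl, 2.53 and 9.25 in shKDM4D, 1.77 and 4.83 in shNFIB, and 2.08 and 7.41 in shMLL1. Day 5 libraries were above all day 0 libraries, and shNFIB was the lowest line at both days. The denominator holds only Suv39h1 and Suv39h2, whose fall had been seen, so this separation of the days is not separate evidence. Summed over all 5 methyltransferases, RPKM was 47.8 at day 0 and 49.1 at day 5 in shControl. That sum was 53.1 and 54.8 in shKDM4D, 53.5 and 50.4 in shNFIB, and 48.8 and 51.9 in shMLL1. By median log2 ratio on the log2(RPKM + 0.1) scale, the 4 KDM4 genes moved by 0.49, 0.48, 0.32 and 0.76 (shControl, shKDM4D, shNFIB, shMLL1). In the same order, the median of the 5 methyltransferase genes and the co-repressor gene Trim28 was -0.29, -0.09, -0.18 and -0.34. That of all expressed genes was 0.03, 0.03, 0.09 and 0.17. Without Trim28, the middle value of the 5 was that of Setdb1 in shControl, shNFIB and shMLL1, at -0.07, -0.14 and -0.05. In shKDM4D it was that of Ehmt2, at 0.07. The KDM4 medians include Kdm4d, which was below the filter and in shControl had 2 and 13 reads. Without Kdm4d, the middle KDM4 value was that of Kdm4c in shControl, shKDM4D and shMLL1, at 0.28, 0.48 and 0.72. In shNFIB it was that of Kdm4a, at 0.37.

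Of the other writers, Setdb1 was 6.22 RPKM at day 0 and 5.91 at day 5 in shControl, 5.91 and 6.52 in shKDM4D, 6.43 and 5.81 in shNFIB, and 7.26 and 6.99 in shMLL1. Its log2 change over the lines was -0.03 (95% interval -0.26 to 0.19, adjusted p = 0.79 by limma), so a common change beyond that interval was not seen. Trim28, which brings SETDB1 to its targets, was 39.8 and 27.8 RPKM in shControl, 40.0 and 33.9 in shKDM4D, 44.9 and 38.7 in shNFIB, and 51.6 and 33.3 in shMLL1. It fell by 0.40 ± 0.10 (SE, 8 libraries, adjusted p = 0.0205 by limma) on the log2 scale with no overlap between days, and the step was widest in shMLL1. The call was lost without shControl (adjusted p = 0.0791 by limma) and without shMLL1 (0.0616). Genes on the opposite strand overlap both: Cers2, beside Setdb1, was between 13.4 and 19.3 RPKM and Zbtb45, beside Trim28, between 2.25 and 3.77.

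Ehmt1 and Ehmt2 code for the GLP and G9a proteins of the dimer. Ehmt1 was 8.32 RPKM at day 0 and 11.2 at day 5 in shControl, 9.84 and 15.5 in shKDM4D, 9.60 and 10.7 in shNFIB, and 7.29 and 8.38 in shMLL1. The shKDM4D line was the highest and shMLL1 the lowest at both days, and the log2 change over the lines was 0.36 ± 0.11 (SE, 8 libraries, adjusted p = 0.0384 by limma), a call lost under 7 of 12 alternatives. The adjusted p by limma was 0.119 without shControl, 0.136 without shKDM4D and 0.0527 without shMLL1. Ehmt2 was 24.9 and 28.6 RPKM in shControl, 27.5 and 28.8 in shKDM4D, 26.4 and 28.0 in shNFIB, and 24.2 and 31.6 in shMLL1. All day 5 libraries lay above all day 0 libraries by a narrow margin, and the log2 change of 0.18 (95% interval -0.04 to 0.41, adjusted p = 0.135 by limma) did not pass the test. The ratio of Ehmt2 to Ehmt1 RPKM was 2.99 and 2.55 in shControl at day 0 and day 5, 2.80 and 1.86 in shKDM4D, 2.75 and 2.62 in shNFIB, and 3.31 and 3.77 in shMLL1, higher at day 5 only in shMLL1.

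**Figure D3:**
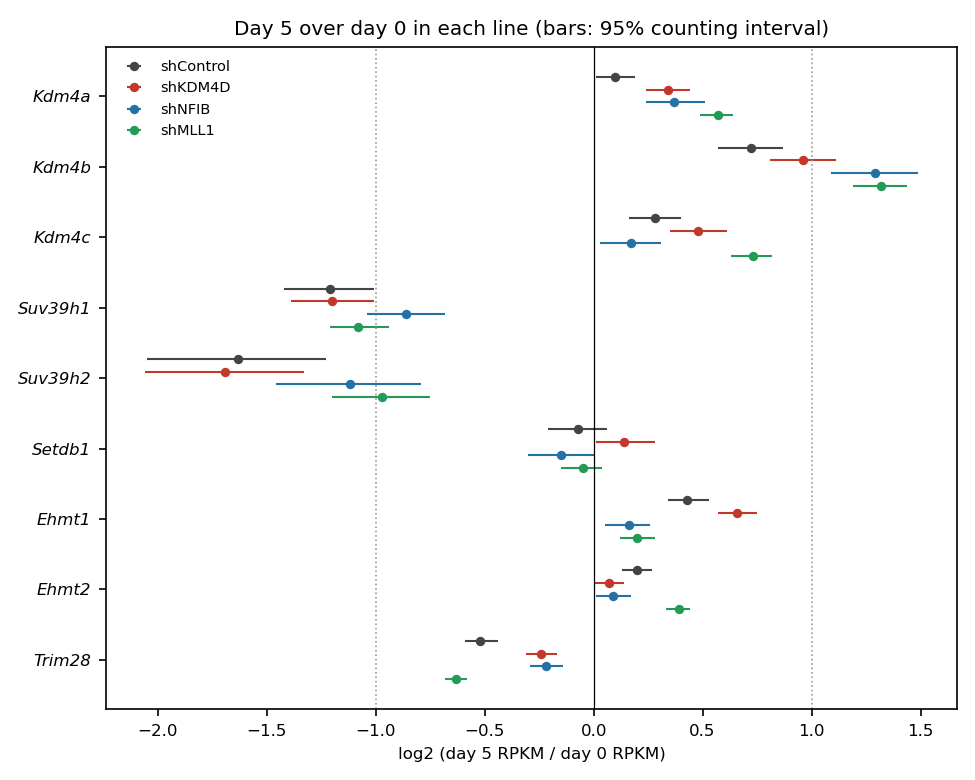
The log2 ratio of day 5 to day 0 RPKM (horizontal axis) for the 9 members over the filter, with 1 point per line, bars for the exact 95% interval that covers counting error only, a solid line at 0 and dotted lines at a 2-fold change. Suv39h1, Suv39h2 and Trim28 lay below 0 in all 4 lines and Kdm4a, Kdm4b, Kdm4c and Ehmt1 above 0, although Kdm4a in shControl was -0.01 without the ribosomal-RNA-like genes, and as ratios to Gapdh Trim28 was 0.23 in shKDM4D and Kdm4a, Kdm4c and Ehmt1 were -0.19, -0.39 and -0.41 in shNFIB.

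Past a 2-fold change within a line, a description with no test, shControl had 0 members higher at day 5 and 2 lower, Suv39h1 and Suv39h2, against 13.0% and 8.56% of all genes over the filter. The shKDM4D line had the same 2 lower and 0 higher, against 8.44% and 12.8%. In shNFIB, Kdm4b was higher and Suv39h2 lower, against 12.6% and 4.96%. In shMLL1, Kdm4b was higher and Suv39h1 lower, against 20.4% and 6.89%. Suv39h2 in shMLL1, at -0.97, and Kdm4b in shKDM4D, at 0.96, were just short of the limit.

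Other genes of the H3K9 pathway gave a mixed picture. Among 7 readers of the mark, 4 fell over the lines by limma and 0 rose, against 21.0% and 29.0% of all genes tested. Among the 4 were Uhrf1, which links H3K9 methylation to DNA methylation, with a log2 change of -1.44 ± 0.17 (SE, 8 libraries, adjusted p = 0.00168), the HP1α gene Cbx5 (-0.76 ± 0.11) and Cdyl (-0.60 ± 0.16). Uhrf1 was 50.7 RPKM at day 0 and 12.9 at day 5 in shControl, 55.4 and 19.7 in shKDM4D, 43.5 and 23.6 in shNFIB, and 70.5 and 26.4 in shMLL1, so that no day 5 library reached a day 0 library. Among the other 7 H3K9 erasers, 2 rose, Kdm7a and Kdm3a, and 0 fell, a share that rose near the 29.0% of all genes. Kdm7a, an eraser of di-methyl H3K9 and H3K27, was 1.18 and 5.36 RPKM in shControl, 1.35 and 4.11 in shKDM4D, 1.01 and 1.91 in shNFIB, and 1.26 and 4.61 in shMLL1, and it rose by a log2 change of 1.57 ± 0.21 (adjusted p = 0.00236 by limma). Of the 9 partner and further writer genes over the filter, 3 rose, 1 fell and 5 did not pass the test, against 29.0% and 21.0% of all genes, with the largest rise, 0.64 ± 0.11 on the log2 scale, in Mecom. No partner gene passed 2-fold in any line.

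By Pearson correlation over the 8 libraries, which fall into a day 0 and a day 5 set, the genes most like Kdm4b in log2(RPKM + 0.1) were Lmo4 (0.996), Sparc (0.991) and Prpf40b (0.987). The genes most like Suv39h2 were Ercc6l (0.996), Plk4 (0.995) and Ticrr (0.994), and the value for Suv39h1 was 0.978. These are descriptions that share the day difference.

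How each knockdown line differed from shControl was asked at each day, with the same control library serving all 3 lines. Among the differences were a lower Kdm4a in shNFIB, a higher Suv39h1 and Suv39h2 in shNFIB and a higher Suv39h2 in shMLL1 at day 5, and an Ehmt1 that was higher in shKDM4D and lower in shMLL1. Averaged over both days, limma called 0 of 9 members in shKDM4D, in shNFIB and in shMLL1. At an unadjusted p under 0.05 the counts were 0 members in shKDM4D, 3 in shNFIB (Suv39h1 and Suv39h2 higher, Kdm4a lower) and 1 in shMLL1 (Suv39h2 higher), and limma voom on the reads also called 0. Of all genes tested, 0 were called higher and 0.0347% lower in shKDM4D, 0.104% and 0.269% in shNFIB, and 0 and 0.0174% in shMLL1, so few calls were made for any gene in this design.

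In shNFIB, Kdm4a was lower than in shControl at both days, with a log2 ratio of -0.78 at day 0 (counting interval -0.89 to -0.67) and of -0.51 at day 5 (-0.62 to -0.39). Averaged over the days the log2 difference was -0.64 ± 0.14 (SE, 8 libraries, adjusted p = 0.109 by limma), which missed the threshold. Kdm4b in this line was lower at day 0, at -0.60 (-0.79 to -0.40), and at -0.03 (-0.18 to 0.12) at day 5. As a ratio to Gapdh, which was 159 RPKM in shNFIB at day 0 against 247 in shControl, the day 0 value was -0.14 for Kdm4a and 0.04 for Kdm4b.

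Suv39h2 was above shControl in the 3 lines at both days. For shKDM4D, shNFIB and shMLL1 its log2 ratios were 0.34, 0.52 and 0.37 at day 0, and 0.29 (counting interval -0.20 to 0.78), 1.04 (0.57 to 1.51) and 1.03 (0.62 to 1.45) at day 5. Suv39h1 lay above shControl as well, by 0.18, 0.34 and 0.22 at day 0 and by 0.19, 0.70 and 0.36 at day 5. As ratios to Gapdh both genes were below shControl in shKDM4D at day 0, at -0.06 and -0.22. The limma difference over both days was 0.73 ± 0.23 in shNFIB (SE, adjusted p = 0.159) and 0.64 ± 0.23 in shMLL1 (adjusted p = 0.284) for Suv39h2. The summed proliferation genes were likewise above the control in the 3 lines at both days, although in shNFIB at day 0 only 9 of the 15 were above it, with Mcm2, Mcm3, Mcm5, Mcm6, Mcm7 and Pcna below. Their part was not tested.

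Ehmt1 took opposite signs in shKDM4D and shMLL1. In shKDM4D its log2 ratio to shControl was 0.24 at day 0 (counting interval 0.14 to 0.34) and 0.47 at day 5 (0.38 to 0.55), and it was -0.19 (-0.28 to -0.10) and -0.42 (-0.51 to -0.33) in shMLL1. As a ratio to Gapdh the shKDM4D value at day 0 was -0.16. Over both days the limma differences of 0.35 ± 0.16 (SE, adjusted p = 0.465) and -0.30 ± 0.16 (adjusted p = 0.407) missed the threshold. Trim28 lay above shControl by 0.01, 0.18 and 0.38 in shKDM4D, shNFIB and shMLL1 at day 0 and by 0.28, 0.48 and 0.26 at day 5. Setdb1 and Ehmt2 stayed within 0.24 and 0.15 log2 units of shControl in every line at both days.

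**Figure D4:**
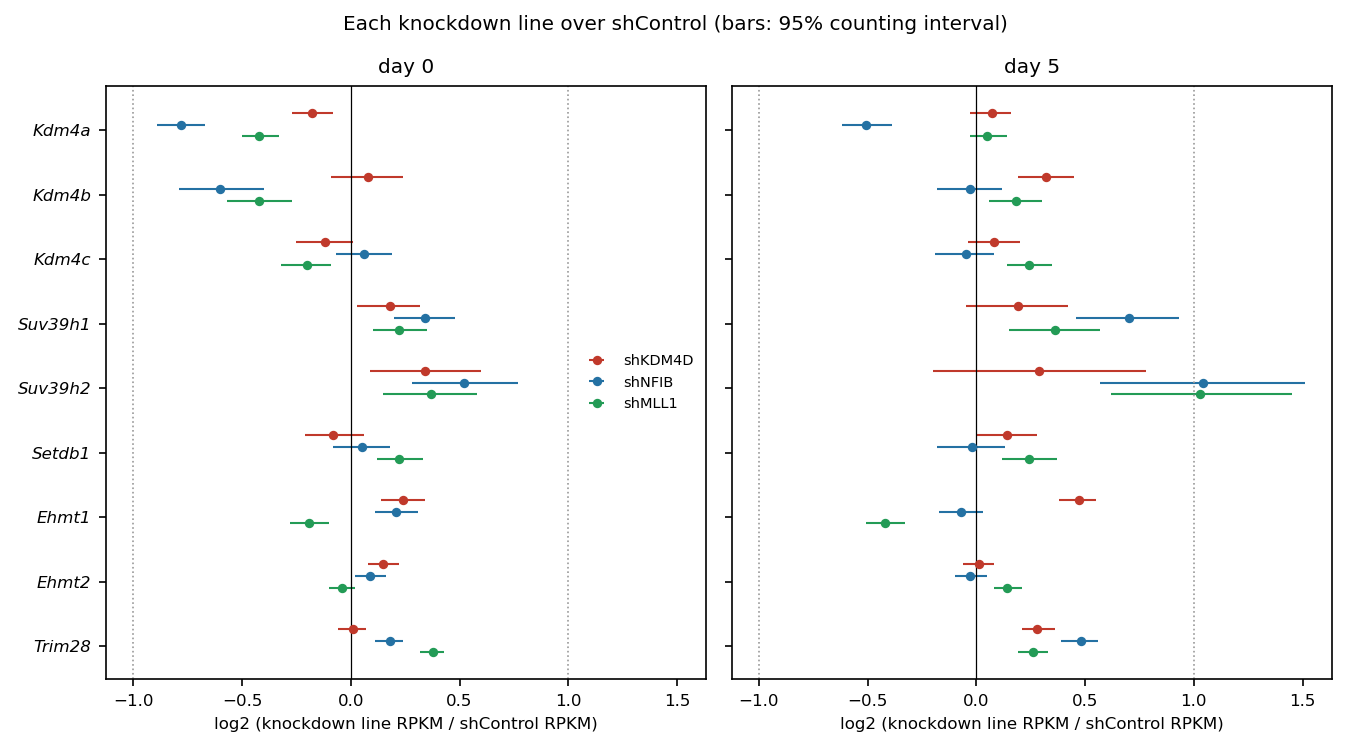
The log2 ratio of each knockdown line to shControl (horizontal axis) at day 0 (left) and day 5 (right) for the 9 members over the filter, with bars for the exact 95% interval that covers counting error only and dotted lines at a 2-fold change. At day 5 Suv39h2 reached 1.04 in shNFIB and 1.03 in shMLL1, and at day 0 no member passed the dotted lines.

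Past 2-fold, 0 of 9 members differed from shControl at day 0 in any line. Of all genes over the filter, 1.98% were higher and 4.26% lower in shKDM4D, 2.95% and 6.05% in shNFIB, and 1.67% and 7.43% in shMLL1. At day 5 the count was 0 in shKDM4D, where 1.88% of genes were higher and 4.57% lower. It was 1 higher and 0 lower in shNFIB and in shMLL1, Suv39h2 in each, against 5.54% and 5.67% in shNFIB and 5.25% and 4.02% in shMLL1. Suv39h2 stood on the limit and dropped below it under median-of-ratios scaling and with a pseudocount. Of the other H3K9 genes, Cdyl was lower in shNFIB at day 0, with a log2 ratio of -1.09 (-1.28 to -0.90). At day 5 Kdm7a was lower in shNFIB, at -1.48 (-1.67 to -1.30), and Uhrf1 higher in shMLL1, at 1.04 (0.94 to 1.14).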

How the data were processed

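Per the labels and the study's methods, RNA from C3H10T1/2 lines was made into stranded libraries and sequenced, and the authors mapped reads to GRCm38 (mm10) in CLC Genomics Workbench and deposited 1 table of RPKM per gene for each of the 8 libraries. The annotation release and strand setting of the counting are not given in the sources used here. Reads were recovered as whole numbers from RPKM and GENCODE M21 exon lengths for between 96.21% and 96.56% of the values checked (within 0.02 reads). The check took symbols with a single gene entry and left out the highest read numbers. Those of Trim28, between 2234 and 8192 reads, and of Ehmt2, between 2439 and 6612, were thus not covered. Ratios of RPKM carry exact Clopper-Pearson 95% intervals, which cover counting error only, and differences of day changes carry normal approximations of them. limma 3.58.1 (R 4.3.3, trended eBayes) was run on log2(RPKM + 0.1) for genes over 1 RPKM in at least 1 library. It was also tried on simulated data with equal noise for every gene and no line effects. That trial does not cover differences in noise between genes or effects of a line. The members, lists and tests were chosen with earlier results of these data known. All members were named, and at most 3 genes per comparison of each list of other H3K9 genes (readers, partner and further writer genes, other erasers), by size of change. Alternatives were 3 scalings, a ratio to Gapdh, other filters, pseudocounts and folds, limma voom, and leaving out each line. The study's own fold and false discovery values were not used here.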

Additional observations from a re-analysis of the deposited data

Results flagged for a closer look

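The 5 results below combine effects of opposite sign whose counting intervals both exclude 0. With 1 library per condition, none of these differences was tested across replicate cultures. Kdm4b in shMLL1 lay below shControl at day 0 (log2 ratio -0.42) and above it at day 5 (0.18), a difference of -0.60. Kdm4c in shMLL1 did the same, from -0.20 to 0.24, a difference of -0.45. As ratios to Gapdh the day 5 values were -0.18 and -0.11, so the change of sign was not kept. Ehmt1 at day 0 was above shControl in shKDM4D (0.24) and in shNFIB (0.21) and below it in shMLL1 (-0.19), with differences of 0.43 and 0.40. At day 5 Ehmt1 was above shControl in shKDM4D (0.47) and below it in shMLL1 (-0.42), a difference of 0.89, which had the same sign as at day 0. As a ratio to Gapdh, Ehmt1 in shKDM4D at day 0 was -0.16.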

How the results depend on the processing

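The direction of the day change of Kdm4b, Suv39h1 and Suv39h2 and their adjusted p under 0.05 were kept in all 12 alternatives of the limma test. The other calls depended on the setting. Of the 4 members that rose, the count was 1 without a filter on RPKM and 1 without the ribosomal-RNA-like genes, and it was between 1 and 3 when a line was left out (1 without shKDM4D, 1 without shMLL1, 2 without shControl, 3 without shNFIB), while Trim28 lost its call without shControl, without shMLL1 and without the filter. Line effects on members stayed at 0 called under the 8 alternatives run for them, which do not include leaving out a line. With a pseudocount of 1, the members past 2-fold at day 5 over day 0 were 0 in shControl and 1 in each knockdown line. At 1.5-fold they were 4 in shKDM4D and 5 in shMLL1, and for shNFIB over shControl 2 at each day. Without the filter Kdm4d passed 2-fold as well, which made the count 1 for shNFIB over shControl at day 0, 1 for shKDM4D over shControl at day 5, and 3 at day 5 over day 0 in shControl, shKDM4D and shMLL1. Suv39h2 in shNFIB and in shMLL1 over shControl at day 5 left 0 members past 2-fold under median-of-ratios scaling and with pseudocounts of 0.1 and 1.

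The median log2 ratio of all expressed genes shifted by over 0.1 under quantile normalization, by -0.13 at day 5 over day 0 in shNFIB and by -0.26 in shMLL1, and by -0.11 in shControl and in shMLL1 without the ribosomal-RNA-like genes, where Kdm4a in shControl was -0.01. Ratios to Gapdh shifted every gene by between -0.56 and 0.64 and turned 15 single values. At day 5 over day 0 these were Trim28 in shKDM4D (0.23) and Kdm4a, Kdm4c, Ehmt1 and Ehmt2 in shNFIB (-0.19, -0.39, -0.41 and -0.48). Over shControl they were Suv39h1, Suv39h2, Ehmt1 and Ehmt2 in shKDM4D at day 0 (-0.22, -0.06, -0.16 and -0.25), Kdm4b in shNFIB at day 0 (0.04) and Kdm4b, Kdm4c, Setdb1, Ehmt2 and Trim28 in shMLL1 at day 5 (-0.18, -0.11, -0.12, -0.21 and -0.10). Of 600 alternative values of single members, 501 stayed inside the counting interval and 83 moved outside it with their sign or with an interval that included 0. Depth limits Kdm4d, with at most 15 reads in a library.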
